A study of Mus musculus with 2 samples.

Results

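The 10 genes described here encode enzymes and a helper protein that make prostaglandins and leukotrienes, plus the enzyme that starts the breakdown of prostaglandins. They were taken by symbol from a table of 20002 genes: Pla2g4a, Ptgs1, Ptgs2, Ptges, Ptgds, Hpgds, Hpgd, Alox5ap, Alox5 and Alox15. All 10 had a row. RNA-seq of mouse kidney gave 2 libraries, 1 labelled Control and 1 labelled CKO for Reg-2 (Regnase-2, an RNA-binding endonuclease that degrades messenger RNAs). The C57BL/6J mice behind the CKO library were injected in the tail vein at 11 weeks of age with AAV9, an adeno-associated virus vector, carrying a short hairpin RNA against Regnase-2. The controls were injected with AAV9 that carried control shRNA by the sequencing methods, or an empty vector by the virus methods. By its construction the CKO group is therefore a knockdown, which the labels call specific to proximal tubules. The sequencing methods place the harvest at 14 weeks and the virus methods at 16 weeks. Neither group had any other treatment, the labels name whole kidney and the methods left kidney tissue, and the sex and number of mice per library are not given in the sources used here.

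Arachidonic acid is cut from membrane phospholipids by cytosolic phospholipase A2 and converted by cyclooxygenases to prostaglandin H2, from which dedicated synthases make prostaglandin E2, prostaglandin D2, prostacyclin or thromboxane. In a separate branch, 5-lipoxygenase with its helper protein FLAP makes leukotriene A4, the precursor of leukotriene B4 and of the cysteinyl leukotrienes. In kidney, prostaglandins act on blood flow, renin release and the handling of salt and water, whereas leukotrienes are made largely by leukocytes.

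Each value is given as reads, inferred by subtracting from the deposited values a constant, 34 for Control and 50 for CKO, 1 less than the lowest value of each column. The libraries held 38851231 and 43588721 such reads, with medians of 284 and 513.5 reads per gene. For comparison, a factor of 0.6667 was applied to CKO reads, which is the median gene's ratio between the libraries. Folds are ratios of these scaled reads, and log2 ratios have 1 read added to both sides. With 1 library per group there was no replicate check and no test between groups, so the 95% intervals (Clopper-Pearson for ratios, exact Poisson for levels) cover counting error only.

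The targeted gene, Zc3h12b (Regnase-2), had 47 reads in Control and 59 in CKO. Its log2 ratio of -0.25 had an interval from -0.83 to 0.33, so a lower level in the library labelled CKO was not detectable at this depth, and the sign turned positive with equal library totals (0.16). Of its relatives, Zc3h12a had 116 reads in Control and 281 in CKO (log2 ratio 0.69), Zc3h12c had 1985 and 2121 (-0.49, positive as deposited) and Zc3h12d had 8 and 80 (2.59, but 1.61 as deposited). The study's staining of Regnase-2 protein was not used here. The libraries are called Control and CKO by their labels.

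All 10 genes passed the minimum of 10 scaled reads in 1 library, as did 17469 genes in all. Of the 10, 5 were at least 2-fold higher in CKO and 0 at least 2-fold lower. Among all genes that passed, 13.4% were higher by 2-fold or more in CKO and 5.35% were lower by as much. The 5 were Ptgs2, Alox5ap, Hpgds, Pla2g4a and Ptgds, which cover arachidonate release, cyclooxygenase, prostaglandin D2 synthesis and the helper of 5-lipoxygenase. The median log2 ratio of the 10 genes was 1.04, against 0.022 over all genes that passed. Their summed reads were 2294 in Control and 6196 in CKO, a 1.80-fold difference after scaling. In whole kidney, more cells of a type and more RNA per cell cannot be told apart, and the same holds for fewer cells and less RNA.

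**Figure D1:**
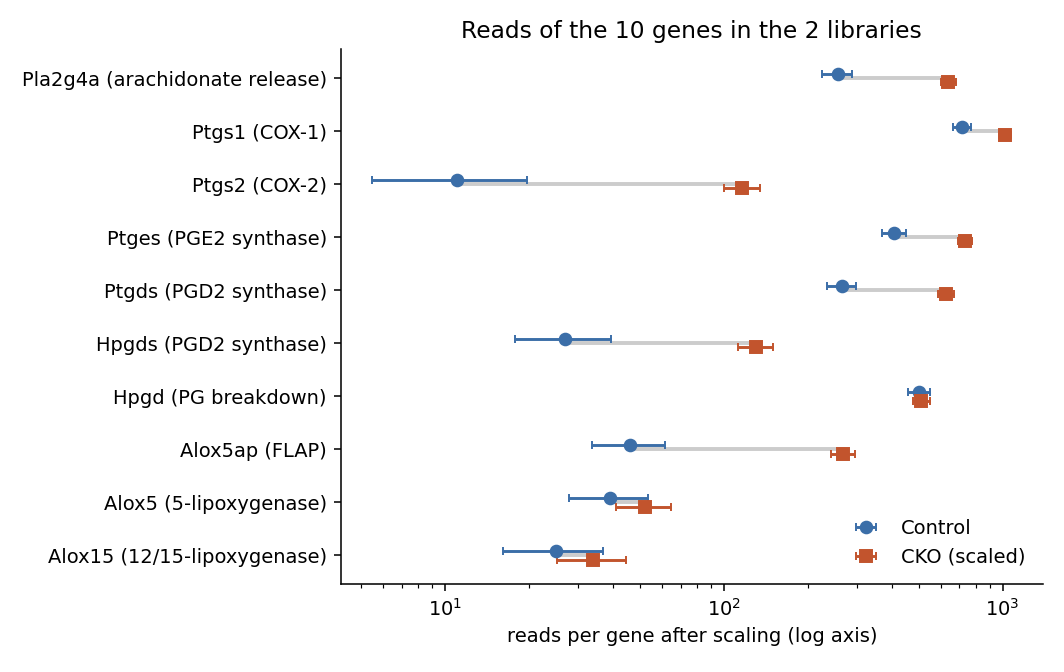
Reads of each of the 10 genes after scaling, on a log axis, in the Control library (circles) and the CKO library (squares), with exact Poisson 95% intervals for counting error. Ptgs2 goes from the fewest reads of the 10 in Control, 11, to 117 scaled reads in CKO, while the points of Hpgd lie on each other.

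The pathway starts with Pla2g4a, the cytosolic phospholipase A2 that frees arachidonic acid (gene ID 18783, chr1:149829618-149961290 of GRCm38, minus strand). It had 256 reads in Control and 958 in CKO. The fold was 2.49 (95% interval 2.17 to 2.88), rank 1636 from the top of 17469 genes by log2 ratio, and the whole interval lay above 2-fold.

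Cyclooxygenase is encoded by a gene pair. Ptgs1 (COX-1, gene ID 19224, chr2:36216742-36258593), the constitutive form, had 715 reads in Control and 1530 in CKO, a fold of 1.43 (1.30 to 1.56). Ptgs2 (COX-2, gene ID 19225, chr1:150100031-150108234, plus strand), the inducible form, had 11 reads in Control and 175 in CKO, a fold of 10.6 (5.78 to 21.6). With the main scaling Ptgs2 had the highest ratio of the 10 genes, rank 111 of 17469, with a wide interval from its 11 Control reads that overlapped that of Alox5ap (4.30 to 8.11). In the values as deposited its log2 ratio, 2.30, was below the 2.49 of Alox5ap. Ptgs1 was higher in CKO beyond counting error but stayed under 2-fold. A mitochondrial gene in the table carries the alias COX1. It encodes subunit 1 of cytochrome c oxidase and was kept apart from Ptgs1.

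Pla2g4a and Ptgs2 are neighbours on chromosome 1, with a gap of 138.7 kb that holds 0 coding genes. Of the 2 annotated genes between them, Gm19136 and Ptgs2os, neither was analysed here. The bases before a gene's start are shown for this pair, since both were over 2-fold higher, and for Hpgd, the gene of the 10 nearest to a ratio of 1. RefSeq promoter windows of GRCm38.p6, from 250 bases before to 50 after a start, were matched by symbol for 8 of the 10 genes, all but Alox5ap and Alox15. The 250 bases before the start run 5′ to 3′ on the gene's strand, and capitals mark the matches to the motifs searched on both strands:
Ptgs2, chr1:150099781-150100030, plus strand: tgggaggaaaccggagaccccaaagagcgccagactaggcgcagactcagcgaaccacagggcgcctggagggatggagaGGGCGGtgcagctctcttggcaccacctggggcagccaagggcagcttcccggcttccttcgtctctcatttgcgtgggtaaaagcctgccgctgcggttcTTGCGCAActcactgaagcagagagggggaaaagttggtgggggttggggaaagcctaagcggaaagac
Pla2g4a, chr1:149961291-149961540, minus strand: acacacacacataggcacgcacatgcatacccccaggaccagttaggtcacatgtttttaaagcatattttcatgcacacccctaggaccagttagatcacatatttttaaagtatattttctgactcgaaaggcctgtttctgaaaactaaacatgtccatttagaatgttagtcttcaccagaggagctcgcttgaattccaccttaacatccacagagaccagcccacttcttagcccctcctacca
Hpgd, chr8:56294302-56294551, plus strand: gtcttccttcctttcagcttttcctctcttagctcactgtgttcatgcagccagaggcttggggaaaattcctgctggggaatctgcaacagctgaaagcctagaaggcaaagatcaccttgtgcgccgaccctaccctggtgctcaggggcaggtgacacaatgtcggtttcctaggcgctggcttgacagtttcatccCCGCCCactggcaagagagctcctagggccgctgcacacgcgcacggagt

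In the Ptgs2 window the C/EBP motif TTGCGCAA stood at -69 to -62 from the start, a motif held by 0.183% of 32851 windows. The Sp1 motif GGGCGG stood at -170 to -165 and is common, in 35.7% of windows. Past the printed bases, at 13 to 18 after the start, came the cyclic AMP response element core ACGTCA (7.51% of windows), whose last bases overlap the E-box CACGTG at 17 to 22 (7.15%). The printed Pla2g4a window had no match, and its other annotated start had a TATA motif, TATAAA on the opposite strand, at -200 to -195 (13.6% of windows). Hpgd had an Sp1 match on the opposite strand at -50 to -45 and TATAAA at 5 to 10 after its start. Of the others, Ptgds held the AP-1 motif TGANTCA (7.81%) and an NF-kB motif (4.51%), Ptges and Alox5 held Sp1 matches, and the Ptgs1 and Hpgds windows held none of the 7 motifs. Of the 5 genes that were at least 2-fold higher, 4 had windows, and no motif searched was found in all of these. Positions count from the annotated RefSeq start, which was not checked against a measured start, so a match after it need not lie in the transcript. A match describes letters in a window and was not tested as a site.

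Prostaglandin H2 is turned into prostaglandin E2 by Ptges, the inducible microsomal synthase (gene ID 64292, chr2:30889471-30931020). Ptges had 408 reads in Control and 1100 in CKO, a fold of 1.80 (1.60 to 2.02), just under 2-fold with an interval that reaches past it. Annotated genes overlap Ptges (Gm52550 and Gm13400) and Alox5 (Gm38880), none of which was analysed here. Whether the authors' counting used strand is not given in the sources used here, so reads shared with them cannot be told apart.

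Prostaglandin D2 has 2 synthases in the list. Ptgds (gene ID 19215, chr2:25466709-25470110), the lipocalin-type enzyme, had 265 reads in Control and 940 in CKO, a fold of 2.36 (2.06 to 2.72). Hpgds (gene ID 54486, chr6:65117293-65144981), the form of mast cells, macrophages and T helper cells, had 27 reads in Control and 195 in CKO, a fold of 4.81 (3.21 to 7.49). Both were over 2-fold higher in CKO across their whole intervals. The reads per kb of Hpgds over those of Ptgds, a ratio within each library that needs no scaling between libraries, were 2.04 times as high in CKO as in Control (1.32 to 3.24). That figure depends on the constants subtracted and was 1.21 in the values as deposited.

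Hpgd encodes 15-hydroxyprostaglandin dehydrogenase, which inactivates prostaglandins (gene ID 15446, chr8:56294552-56321046). It had 502 reads in Control and 766 in CKO, which scaling brought to 511. The fold was 1.02 (0.908 to 1.14), so no difference was detectable at this depth. Its log2 ratio, 0.025, was next to the median of all genes, 0.022, and moved with that median to 0.44 with equal library totals and 0.61 in the values as deposited.

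**Figure D2:**
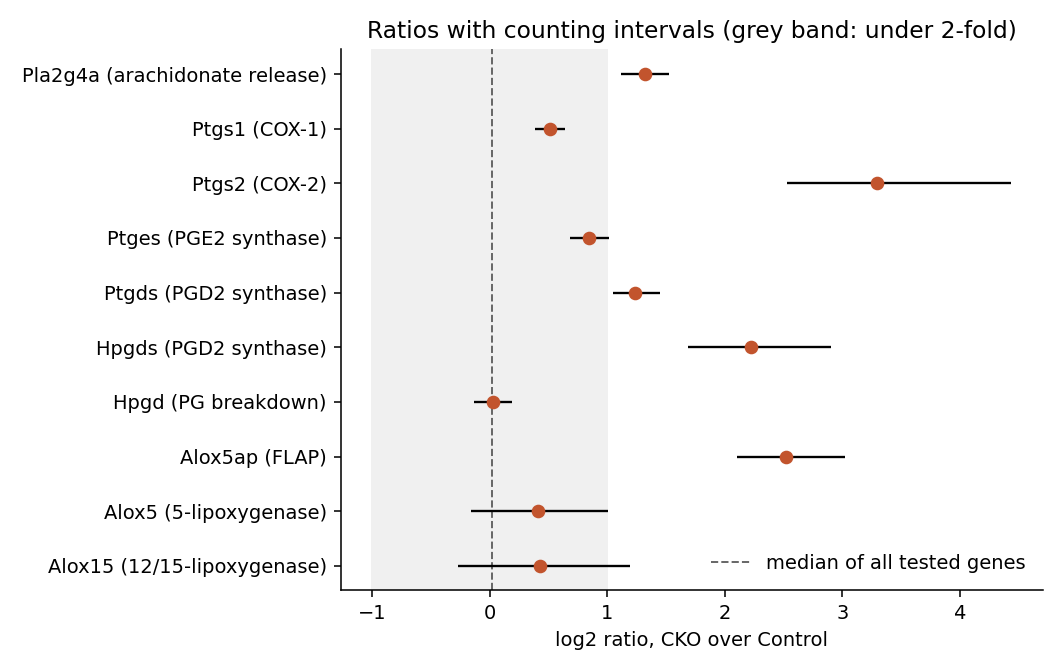
Log2 ratio of CKO over Control for the 10 genes (points, 1 library per group) with 95% Clopper-Pearson counting intervals (lines). The dashed line is the median of all 17469 genes that passed, 0.022, and 5 points lie right of the grey band that marks less than 2-fold.

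In the leukotriene branch, Alox5ap (gene ID 11690, chr5:149265004-149288153) encodes FLAP, which presents arachidonic acid to 5-lipoxygenase. It had 46 reads in Control and 403 in CKO, a fold of 5.84 (4.30 to 8.11), rank 374 of 17469. Alox5 (gene ID 11689, chr6:116410071-116461178), the 5-lipoxygenase itself, had 39 reads in Control and 78 in CKO, a fold of 1.33 (0.897 to 2.01). Helper and enzyme thus differed. The interval of Alox5 spans 1, so no difference was detectable, and the ratio of Alox5ap to Alox5 per kb within a library was 4.38 times as high in CKO (2.59 to 7.35).

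Alox15 (gene ID 11687, chr11:70344147-70390538) encodes the 12/15-lipoxygenase, which adds oxygen at other carbons of arachidonic acid. It had 25 reads in Control and 51 in CKO, a fold of 1.36 (0.827 to 2.29), again with no difference detectable at this depth. A pseudogene annotated within its span, Gm12312, had 48 and 41 reads (log2 ratio -0.79), so part of the Alox15 reads could be shared with it.

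Levels of different genes were compared as scaled reads per kb of the longest coding transcript. In Control, Hpgd (298), Ptgds (294) and Ptgs1 (249) were highest, and neighbours in that order had overlapping counting intervals. Ptges (112) and Pla2g4a (89.6) followed with intervals that just met, then Alox5ap (36.8). Alox5 (13.8), Alox15 (10.4) and Hpgds (7.77) formed a low group whose neighbours overlapped, and Ptgs2 (2.47) was below them all. The kidney of the Control library therefore held far more COX-1 than COX-2 message, 101 times as much per kb. That figure is imprecise, since the level of Ptgs2, from 11 reads, had an interval of 1.23 to 4.42. It also depends on the constants subtracted.

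In CKO, Ptgds (696 scaled reads per kb) stood alone at the top, ahead of Ptgs1 (356) and Hpgd (303). Pla2g4a (224), Alox5ap (215) and Ptges (201) came next, and neighbours among these overlapped. Hpgds (37.4) and Ptgs2 (26.2) now stood above Alox5 (18.4) and Alox15 (14.1), although the intervals of Ptgs2 and Alox5 overlapped. Alox5ap, below both Ptges and Pla2g4a in Control, thus reached the level of these genes in CKO.

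**Figure D3:**
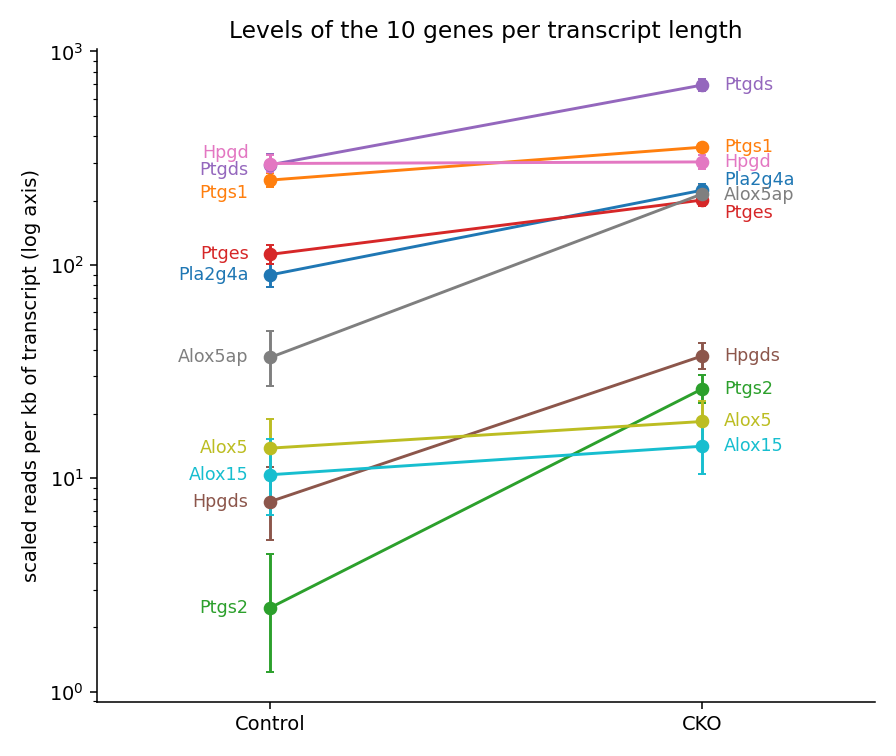
Scaled reads per kb of the longest coding transcript for the 10 genes in each library, on a log axis, with exact Poisson 95% intervals for counting error. The lines join the same gene in both libraries. Alox5ap meets Pla2g4a and Ptges in CKO, and Ptgs2 moves from the lowest place to a level that overlaps Alox5.

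Ratios within a library show how the balance of enzymes differed without scaling between libraries, though they depend on the constants subtracted. In the values as deposited, the ratio of Ptgs2 to Ptgs1 was 2.37 times as high in CKO, that of Hpgds to Hpgd 2.64 times and that of Ptgs2 to Hpgd 3.28 times, all below the intervals given next. Ptgs1 exceeded Ptgs2 per kb by 101 times in Control and 13.6 times in CKO, so the ratio of Ptgs2 to Ptgs1 was 7.43 times as high (4.02 to 15.3), yet COX-1 message remained the more abundant in both libraries. Ptges stood at 0.380 of Ptgds per kb in Control and 0.289 in CKO, a change to 0.760 of the Control ratio (0.634 to 0.911). Ptges was thus the lower of this pair in both libraries, and more so in CKO. The pair does not cover all prostaglandin E2 synthase message. Ptges2 had 490 scaled reads per kb in Control and 294 in CKO, and Ptges3 had 1948.5 and 1729.7, all above Ptges. Hpgds over Hpgd was 4.73 times as high in CKO (3.10 to 7.48), and Ptgs2 over Hpgd was 10.4 times as high (5.60 to 21.5). These are ratios of message, and the balance of prostaglandin synthesis and breakdown was not measured. Both Hpgds and Ptgs2 were thus higher in CKO relative to Hpgd.

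The rest of the pathway was read from lists by step, which name 65 genes beside the 10. Of these, 46 were analysed here and passed the minimum, of which 9 were higher by 2-fold or more in CKO and 5 lower. Among all genes that passed, the shares were 13.4% and 5.35%, also to be set beside the counts by step and marker list below. The median log2 ratio of the 46 was 0.15. So the 10 genes had a higher median than the remaining pathway, which was mixed in direction. The 9 phospholipase A2 genes analysed, Pla2g4a among them, had a median log2 ratio of 0.24, which moved to 0.74 with a minimum of 50 scaled reads, 0.66 with equal library totals and 0.81 as deposited. They ran from Pla2g12b, a secreted-type family member (26 and 90 scaled reads, log2 ratio 1.75), to the secreted Pla2g3 (11 and 4 scaled reads, log2 ratio -1.26, an interval of the fold from 0.110 to 1.07). Pla2g3 was under 2-fold lower with equal library totals (-0.92) or a pseudocount of 10 (-0.58) and turned positive, 0.31, in the values as deposited.

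The 9 other prostanoid synthases and reductases had a median log2 ratio of -0.17, which turned to 0.25 with equal library totals and 0.41 in the values as deposited. The highest was Akr1b8, an aldo-keto reductase with related genes in its family (114 and 525 scaled reads, log2 ratio 2.19). Whether reads were shared between these genes was not tested. The lowest was Prxl2b, a prostaglandin F synthase (3221 and 1533 scaled reads, log2 ratio -1.07, but -0.65 with equal library totals and -0.47 as deposited). The synthases outside the 10 thus showed no common direction.

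Of 8 transport and breakdown genes, Hpgd included, 2 were higher by 2-fold or more and 1 was lower by as much, around a median log2 ratio of 0.25. Abcc4, which pumps prostaglandins out of cells, had 812 reads in Control and 2790 scaled reads in CKO (log2 ratio 1.78). Slco3a1, an organic anion transporter, had 6441 and 2973 (-1.11), and was under 2-fold lower with equal library totals (-0.70) and as deposited (-0.52).

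Of the 9 prostanoid receptors listed, 7 were analysed, and only Ptger4, the EP4 receptor for prostaglandin E2, was at least 2-fold higher. It had 66 reads in Control and 263 scaled reads in CKO, a fold of 3.99 (3.07 to 5.26). The other prostaglandin E2 receptors had log2 ratios of 0.42 for Ptger1, 0.22 for Ptger2 (9 reads in Control and 10.7 scaled reads in CKO) and -0.27 for Ptger3, whose sign turned with equal library totals and in the values as deposited. EP4 therefore stood apart from EP1, EP2 and EP3 in size of ratio, although the fold of Ptger2 had an interval from 0.493 to 3.04. Ptgfr, the prostaglandin F receptor, had a log2 ratio of 0.077, Ptgir, the prostacyclin receptor, 0.73 (1.15 with equal library totals and 1.10 as deposited), and Tbxa2r, the thromboxane receptor, -0.80. The prostaglandin D2 receptor genes Ptgdr and Ptgdr2 were not analysed here.

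**Figure D4:**
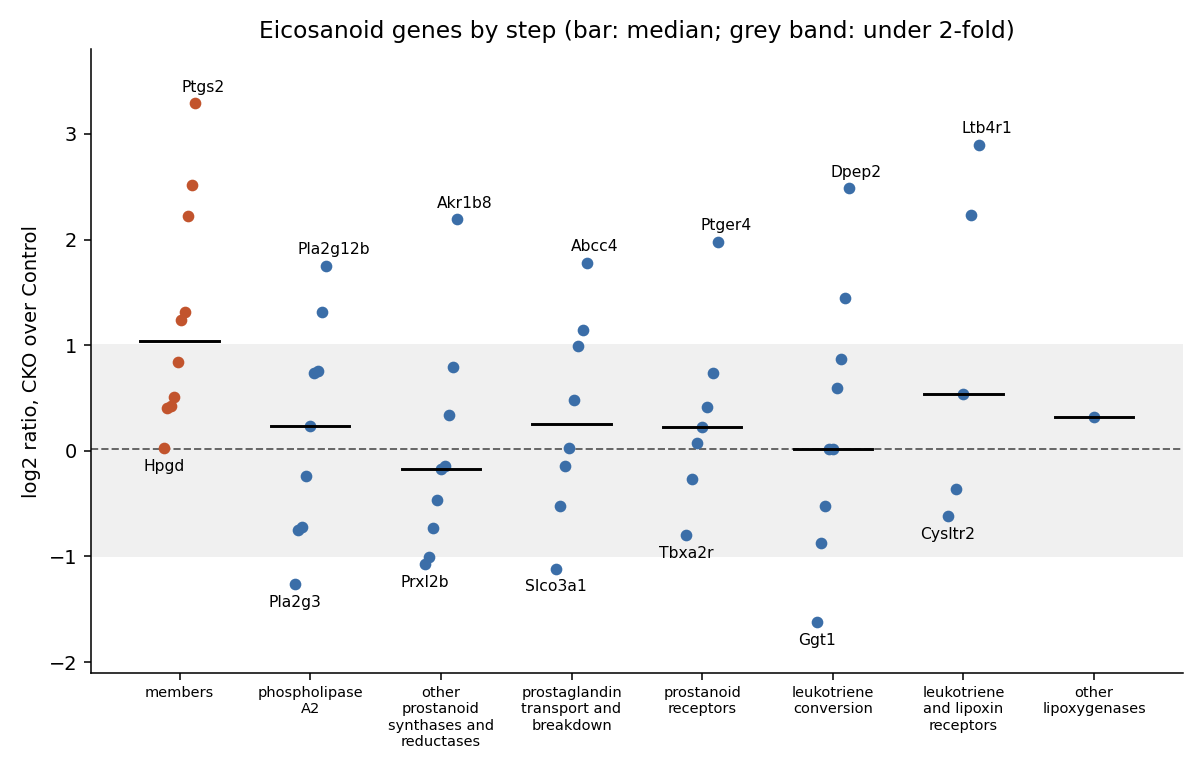
Log2 ratio of CKO over Control for the 10 genes (members, left) and for the other genes of the pathway by step, with 1 point per gene, a bar at each list's median and the highest and lowest gene named. Pla2g4a and Hpgd appear also in the list of their step, and the dashed line is the median of all genes that passed, 0.022. The median of the 10 genes is 1.04 and those of the 7 other lists lie between -0.17 and 0.54, where the lowest turns positive with equal library totals or as deposited and the highest is 1.38 with a minimum of 50 scaled reads.

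Downstream of leukotriene A4, the 9 conversion genes analysed had a median log2 ratio of 0.019, level with all genes and -0.0022 once the median of all genes was set to 0. Dpep2, a dipeptidase that trims leukotriene D4, was highest, with 10 reads in Control and 60.7 scaled reads in CKO (log2 ratio 2.49, but 1.66 as deposited). Ggt1, the brush border transferase that trims leukotriene C4, was lowest, with 49199 and 16001 (-1.62). Between these, Ltc4s, the leukotriene C4 synthase, had a log2 ratio of 1.45 and Lta4h, the leukotriene A4 hydrolase, 0.017, which fell just below 0 with the median of all genes set to 0 or a constant larger by 1 read. Both were singled out, after their values were seen, as the enzymes at the branch to the cysteinyl leukotrienes and leukotriene B4. Ggt5, a relative of Ggt1 in the same list, went the other way. It had 189 reads in Control and 347 scaled reads in CKO, a fold of 1.83 (1.55 to 2.18). The ratio of Ggt1 alone therefore does not describe the trimming of leukotriene C4.

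Of 6 leukotriene and lipoxin receptors listed, 5 were analysed and 2 were at least 2-fold higher. Cysltr1, a cysteinyl leukotriene receptor, had 32 reads in Control and 154 scaled reads in CKO, a fold of 4.81 (3.32 to 7.20). Ltb4r1, the high-affinity leukotriene B4 receptor, had 2 reads in Control and 21.3 scaled reads in CKO, a ratio of 10.7 with a counting interval of 2.72 to 91.9. Its log2 ratio of 2.90 fell to 1.38 with a pseudocount of 10 and 1.17 as deposited. Both receptors were thus higher beyond counting error, with little precision for Ltb4r1. Cysltr2 (log2 ratio -0.62) and Ltb4r2 (-0.36), the other receptors of the same ligands, had fewer than 20 reads in each library, intervals that span a ratio of 1, and a positive sign in the values as deposited. Oxgr1, which also binds leukotriene E4, had a log2 ratio of 0.54 (1.09, past 2-fold, as deposited), which was also the list's median. With a minimum of 50 scaled reads that median was 1.38, above the 1.24 of the 10 genes less Alox15, which that minimum leaves out. Alox12 alone was analysed among 5 other lipoxygenases, at 0.32.

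Markers of leukocytes and of kidney cells also differed between the libraries. All 10 macrophage markers were analysed and 9 were at least 2-fold higher in CKO, with a median log2 ratio of 2.58. Their summed reads were 6560 in Control and 50445 in CKO, 5.13-fold after scaling, led by Cd74, the most abundant, at 2.61. Csf1r (0.51) was the lowest, and the other 9 ran from Cd68 (2.17) to Lyz2 (3.66). In the main values the ratios of Ptgs2, Alox5ap and Hpgds fall among these 9 and those of the other 7 genes below them. This order depends on the constants subtracted. As deposited, the ratios of Ptgs2 (2.30) and Hpgds (1.99) were lower and the median of the 10 macrophage markers was higher, 2.97. The part of macrophage content in the result was not tested.

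Of 8 T cell markers, 7 were analysed and all 7 were at least 2-fold higher (median log2 ratio 1.89, summed reads 84 and 506), from Cd28 (1.45, but 0.84 as deposited and 0.70 with a pseudocount of 10) to Cd3g (2.22), with Lck the most abundant (1.89). Neutrophil markers were sparse, with 4 of 10 analysed, 58 and 267 summed reads and a median of 1.21. Csf3r was both the most abundant and the highest of these (2.37), and Ltf the lowest (-1.58, but 0.19 in the values as deposited). Mast cell content was covered by Kit alone among 10 markers (325 and 732 reads, 0.58), and B cell content by Cd79b alone among 5 (23 and 40 reads, 0.21). Of 7 eosinophil markers 2 were analysed, Ear2 (4 and 154 reads, 4.37, but 3.01 with a pseudocount of 10 and 2.39 as deposited), which has near-identical relatives, and Il5ra, the more abundant in Control (-0.42, positive as deposited), with 95 and 256 summed reads and a median of 1.98 (1.34 as deposited). Of 6 platelet markers 4 were analysed and 2 passed the minimum, Pf4 (0.79) and Itga2b, the most abundant (-0.58, positive as deposited), with a median of 0.10. The summed reads of all 4 were 194 and 218. The part of these cells in the ratios of Hpgds, Alox5ap and Alox5 was not tested. For mast cells, eosinophils, B cells and platelets these markers give little to measure it with. The eosinophil markers Siglecf, Ccr3, Prg2, Epx and Ear1 were not analysed, and Ear2 and Il5ra differed in sign in the main values.

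Among kidney cells, the 10 proximal tubule markers had a median log2 ratio of -0.76, and 4 of them were at least 2-fold lower. The median was -0.35 with equal library totals and -0.18 as deposited, and fewer than 4 were at least 2-fold lower in both. Their summed reads were 528468 in Control and 420939 in CKO, 0.531-fold after scaling, with Slc34a1 the most abundant (-1.17, but -0.75 with equal library totals and -0.58 as deposited), Slc22a12 lowest (-1.67) and Slc5a12 highest (0.41). These high reads show proximal tubule in both libraries, as the tissue label says. Ggt1, low among the leukotriene genes, is a proximal tubule gene, and the part of proximal tubule content in its ratio was not tested.

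The 6 markers of thick ascending limb and macula densa, where Ptgs2 is known to be made, had a median of 0.39 and summed reads of 132671 and 246267 (1.24-fold after scaling). Umod was the most abundant (0.47), Slc12a1 the lowest (-0.14, positive with equal totals and as deposited) and Pappa2, made near the macula densa, the highest (15 and 98.7 scaled reads, 2.64). Nos1, the other macula densa marker in the list, had 38 reads in Control and 47.3 scaled reads in CKO, a fold of 1.25 (0.829 to 1.90), with no difference detectable. The 6 collecting duct markers, from cells rich in COX-1, had a median of 0.57 and summed reads of 13572 and 28747 (1.41-fold after scaling). They ran from Aqp3 (-0.15, positive with equal totals and as deposited) to Aqp2, the most abundant (0.79). The parts of these segments in the ratios of Ptgs2 and Ptgs1 were not tested.

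Of the 6 fibroblast markers 5 were at least 2-fold higher, with a median of 2.02 and summed reads of 5224 and 25323 (3.23-fold after scaling). They ran from Pdgfrb, the most abundant in Control (0.48), to Col1a1 (2.65), and their part in the ratios of the 10 genes was not tested. Endothelium (6 markers, median -0.13, 12231 and 16205 summed reads, Plvap most abundant at -0.095 and positive with equal totals and as deposited, Kdr lowest at -0.67 and Emcn highest at 0.14) and podocytes (5 markers, median -0.11, 8426 and 12034 summed reads, Podxl most abundant at 0.082 and Synpo highest at 0.28) stayed near the median of all genes. Both list medians turned positive with equal library totals and as deposited.

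Over the 2 libraries, the genes nearest Ptgs2 in log2 ratio, among 2174 with Control reads within 2-fold of its 11, were Inhba, Clec5a and Il18r1. Inhba, a subunit of activin, had 6 reads in Control and 101 in CKO and differed from Ptgs2 by 0.0064 on the log2 scale. Clec5a, a myeloid lectin receptor, had 8 and 130 (0.0096), and Il18r1, a chain of the interleukin-18 receptor, 17 and 261 (0.012). In the values as deposited the log2 ratios spread to 1.89 for Inhba, 2.07 for Clec5a and 2.59 for Il18r1, against 2.30 for Ptgs2. With 2 libraries this likeness is 1 ratio per gene, and the differences in the main values are far smaller than the counting interval of Ptgs2 itself.

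The sizes of these ratios depended on the scaling and on the constants subtracted. With equal library totals the median log2 ratio of the genes that passed moved from 0.022 over 17469 genes to 0.44 over 17682, since the minimum applies to rescaled reads. In the values as deposited, which have neither a constant subtracted nor a scaling, it moved to 0.59, and the 10 genes stayed above the median of all genes under every setting tried, except that Alox15 was not among the genes left by a minimum of 50 scaled reads. Ptgs2 ranged from 2.30 as deposited to 3.71 with equal totals, and Ptges joined the genes at least 2-fold higher under both. Ptgs1 did so as deposited only.

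**Figure D5:**
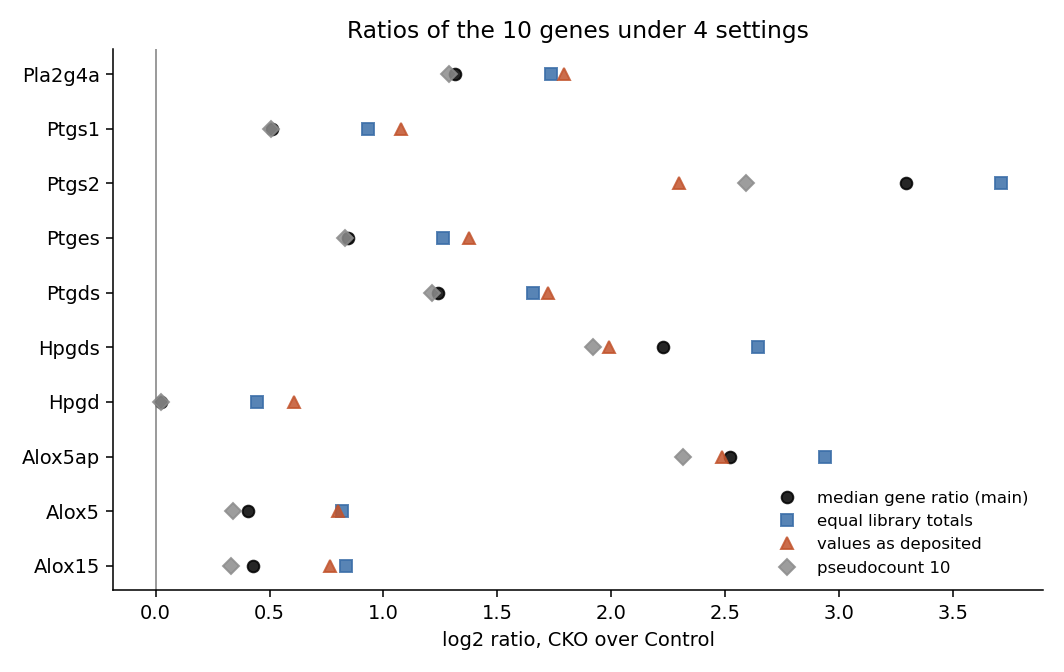
Log2 ratio of CKO over Control for the 10 genes under the main scaling and 3 alternatives, with 1 point per setting. Equal library totals move all 10 to the right, and values as deposited or a pseudocount of 10 pull Ptgs2, with 11 Control reads, down to 2.30 and 2.59.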

How the data were processed

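Poly(A) RNA-seq libraries (TruSeq Stranded mRNA) were made from kidney, 1 per group. For alignment the authors used STAR 2.7.3a, for counting HTSeq and for normalization DESeq2, and the submitters' processing notes name mm10. The deposited values, called normalized counts, are whole numbers with lowest values of 35 and 51 and unequal totals, so they were treated as a score with no standard unit, and 1 unit above the subtracted constant was read as 1 read. Constants of 34 and 50 were subtracted and CKO reads scaled by 0.6667. Python 3.11.15, numpy 2.4.6, pandas 2.3.3, scipy 1.17.1 and matplotlib 3.10.9 were used, and the calculations were checked on data with known answers. A gene with no row was not analysed here. Gene positions came from RefSeq GRCm38.p6 by gene ID and transcript lengths from GENCODE M21. The members and lists were chosen with earlier results of these data known. Named were the 10 genes, the highest and lowest gene of each pathway list, all receptors, the most abundant, highest and lowest gene of each marker list, the Regnase genes and the 3 genes nearest Ptgs2. Cd68, Nos1, Ltc4s, Lta4h, Ptges2, Ptges3 and Ggt5 were named after their values were seen. The value of 1 gene that this rule names is not reported here. The marker lists covered macrophages, neutrophils, mast cells, eosinophils, T cells, B cells, platelets, proximal tubule, thick ascending limb, collecting duct, fibroblasts, endothelium and podocytes. Alternatives were the pseudocount, read minimum, scaling, subtracted constant and fold threshold.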

Additional observations from a re-analysis of the deposited data

How the results depend on the processing

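No paired analysis was possible because only 1 library stands in either group. Several alternatives move nearly all ratios upward, so the signs of the 10 genes, none of which changed, say little about stability, and Hpgd fell to 0.0030 with the median of all genes set to 0. With equal library totals, 3870 genes were at least 2-fold higher and 437 lower (89.9% of those past 2-fold were higher, against 71.4%), the median log2 ratio of the 10 genes was 1.46, Zc3h12b turned to 0.16, and the list medians turned to 0.25 for other prostanoid synthases, 0.29 for endothelium and 0.30 for podocyte. In the values as deposited, 3574 were higher and 131 lower (96.5% higher), the median of the 10 was 1.55, the ratio of Ptgs2 to Ptgs1 was 2.37 times and of Hpgds to Hpgd 2.64 times as high in CKO, and the signs of Zc3h12b (0.42), Pla2g3 (0.31), Ltf (0.19), other prostanoid synthases (0.41), endothelium (0.46) and podocyte (0.48) turned. These values keep the constants, which pull the ratios of low genes toward the ratio of the constants. With the median of all genes set to 0, the leukotriene conversion median was -0.0022. A minimum of 50 scaled reads left 617 genes at least 2-fold lower, from fewer genes. At 1.5-fold 3801 were higher and 2423 lower, and at 4-fold 749 and 166, with 3 of the 10 genes higher (Ptgs2, Hpgds and Alox5ap). Elsewhere the cause was not tested. Of the remaining values, 595 stayed within their counting interval or within 1.5 times of a count, and 127 moved beyond it. Depth limits Ptgs2, Hpgds, Alox5ap, Alox5, Alox15, Ptger2, Ltb4r1 and Zc3h12b, among others, each with under 50 Control reads. Reads are inferred from deposited values, so intervals rest on that step, and amplified reads are not independent molecules.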
